A study of Drosophila melanogaster with 6 samples.

Results

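The 6 Hsp70 genes of Drosophila melanogaster lie in 2 clusters on chromosome arm 3R, with Hsp70Aa and Hsp70Ab at cytological position 87A and Hsp70Ba, Hsp70Bbb, Hsp70Bb and Hsp70Bc at 87C. Binding of the histone acetyltransferase Gcn5 at these clusters was followed in 3 lists of chromatin immunoprecipitation sequencing (ChIP-seq) peaks. Members were all peaks that overlapped a window of 30 kb at 87A (3R 7770000 to 7800000) or of 60 kb at 87C (3R 8285000 to 8345000), in coordinates of build dm3. They numbered 23 of the 14386 peaks in the lists, with 11 of 5096 in Kc cells given GFP RNAi, 10 of 4228 in Kc cells given CP190 RNAi and 2 of 5062 in S2 cells given GFP RNAi. The windows were chosen by the scores and the presence of peaks in these same lists, so the positions, scores and shares below are descriptions and no test is attached to them.

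Kc and S2 are established lines of embryonic origin. Cultures of each were kept at 25 °C. For RNAi they were given double-stranded RNA at 90 µg for every 6000000 cells, with GFP as the control target in both lines and CP190 as the target in Kc cells alone. The labels name no heat treatment for any sample. After crosslinking with 1% formaldehyde, each precipitation used 5 µg of a rabbit polyclonal antibody against Gcn5. Each of the 3 conditions was 1 library, and the 3 input libraries were not analysed here. No difference between the lists therefore has a replicate check, and the lists do not report how far CP190 was depleted.

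Hsp70 is a cytosolic chaperone that binds unfolded protein and releases it in cycles of ATP hydrolysis. The fly genes are a classic model of rapid induction: an RNA polymerase II held just inside the gene is released when heat shock factor (HSF) binds upstream, and the loci at 87A and 87C then swell into puffs on polytene chromosomes. Gcn5 acetylates histone tails at active promoters as the enzyme of the coactivator complexes SAGA and ATAC. CP190 is a BTB and zinc-finger protein that insulator proteins recruit to domain borders and to many promoters. The 87A pair is itself flanked by scs and scs', which were among the earliest insulator elements described.

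In the Release 6 gene table Hsp70Aa and Hsp70Ab are neighbours, with CG31211 before and CG3281 after them. Hsp70Ba is followed by the long noncoding RNA gene of the alphagamma element, whose transcripts are themselves heat-induced, and then by Hsp70Bbb, Hsp70Bb and Hsp70Bc with 1 small pseudogene between each pair (CR46154 and CR46155). Octbeta3R lies beyond Hsp70Bc. That table has other coordinates than dm3 and was used for names and order only, so no peak below was assigned to 1 gene copy. The Hsp70 genes are near-identical copies, and the sources used here do not state how reads that match several copies were placed, so the division of signal between copies is uncertain.

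Among the members, the highest-scored and widest peaks of both Kc lists lay in a block of about the same extent in the right part of the 87C window. After CP190 RNAi it was called as 1 peak at 3R 8327361 to 8337358, 9998 bp wide, with a score of 3195.85. This peak held rank 1 of 4228 in its list both by score and by width. On the major chromosome arms, the next score in that list was 1270.96, for a peak at 3L 3191868 to 3199888, and the next width was 8608 bp. Great width and high score thus met in a single Hsp70 peak.

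In the GFP RNAi control the same stretch was called as 2 peaks separated by 70 bp. The left one, at 3R 8327373 to 8333609, was 6237 bp wide with a score of 837.09, rank 61 by score and rank 16 by width of 5096. The right one, at 3R 8333680 to 8337262, was 3583 bp wide with a score of 420.08, rank 487 by score and rank 183 by width. The outer edges of the block were close in both Kc libraries: the left edges lay 12 bp apart and the right edges 96 bp apart. With peaks joined across gaps of up to 200 bp, the control block was 9890 bp wide and became the widest of the 5014 joined control peaks, with the score of its higher part and so still rank 61 by score. The block thus led the CP190 RNAi list by score and by width, whereas it led the control list by width only once peaks were joined, and not by score. Scores are the authors' own peak values with no normalization between libraries, and ranks in lists of different length show no change in binding, so these values do not measure whether more Gcn5 was bound after CP190 RNAi.

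In S2 cells nearly all of this block was without a called peak. The only S2 peak of the 87C window, at 3R 8336813 to 8337714, was 902 bp wide with a score of 240.58, rank 1849 of 5062 by score and 4038 by width. It lay across the right edge of the block. It shared 546 bp with the CP190 RNAi peak, which was 5.46% of that peak, and 450 bp with the right control peak. The left control peak of 6237 bp had no S2 peak on any of its bases. Sequence names are spelled without a prefix in the S2 list and with one in the Kc lists, so a difference in processing and a difference between the cell lines cannot be told apart.

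**Figure D1:**
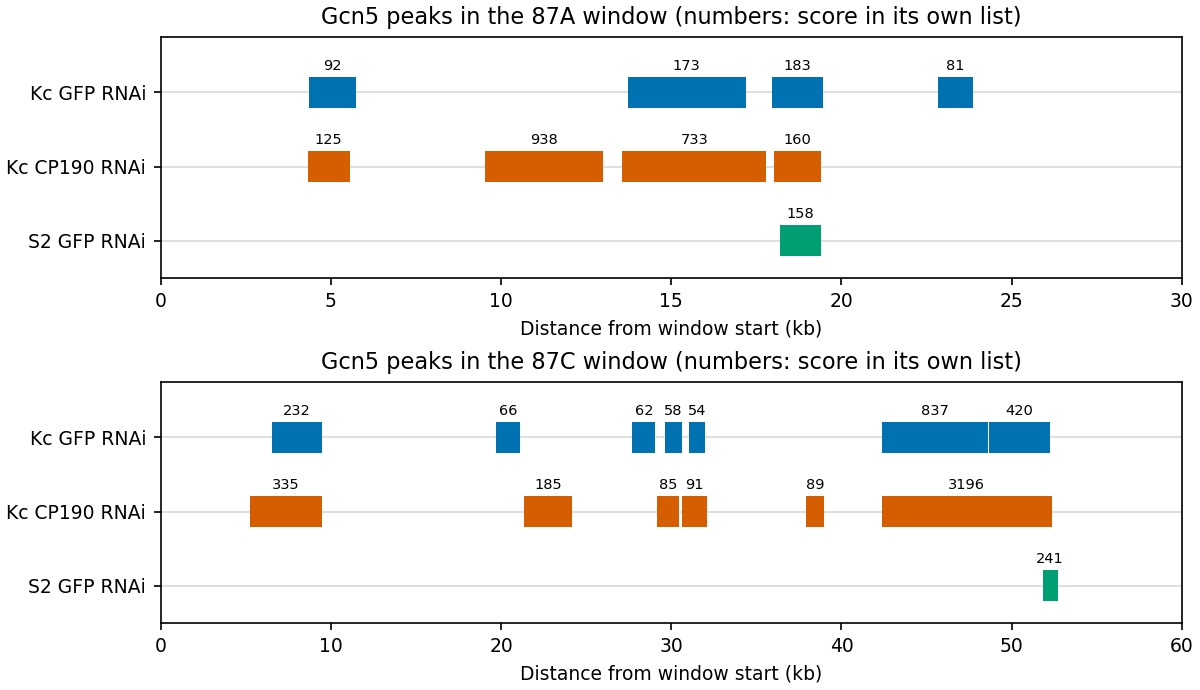
Gcn5 peaks in the 87A window (top) and the 87C window (bottom), by distance from the window start in kb, 1 row per list. Each bar is a peak and the number above it its score in its own list. The block from about 42 to 52 kb of the 87C window is 1 peak of 9998 bp after CP190 RNAi and 2 peaks in the control, and S2 has 1 peak of 902 bp at its right edge.

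At 87A the 2 Kc libraries differed in what they called over the middle of the window. After CP190 RNAi a pair of wide peaks lay 551 bp apart. The left one, at 3R 7779521 to 7783003, was 3483 bp wide with a score of 937.88, rank 7 of 4228. The right one, at 3R 7783555 to 7787795, was 4241 bp wide with a score of 733.16, rank 15. A counterpart of the right peak was called in the control, at 3R 7783717 to 7787195, 3479 bp wide with a score of 172.76, rank 2065 of 5096. All of that control peak lay inside the CP190 RNAi peak. The left peak had no overlapping peak there: it fell in a stretch of 7973 bp without a control peak, between the control peaks that ended at 7775743 and began at 7783717. Its right end, at 7783003, lay within 1000 bp of the latter.

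With the 87C block, 3 of the 15 highest-scored peaks of the CP190 RNAi list lay in the Hsp70 windows. In the control list none of the 20 highest-scored peaks and 1 of the 100 highest lay in the windows, and in the S2 list none of the 100 highest did. Because the windows were chosen by scores in these same lists, nothing is read from these counts. The control peaks of the 87A window had ranks by score from 1932 to 3874, all behind both parts of the 87C block in the same list. Absence from a list means here that no peak was called, and the lists carry no signal values for uncalled sites.

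Smaller peaks flanked the wide ones at 87A. At the right border of the pair a peak of ordinary size was called in all 3 lists. It ran from 7787949 to 7789456 in the control (1508 bp, score 183.42), from 7788008 to 7789397 after CP190 RNAi (1390 bp, score 160.13) and from 7788186 to 7789405 in S2 cells (1220 bp, score 157.59). Its right edges lay 59 bp apart between the Kc lists and 51 bp apart between the control and S2. This site was the only S2 peak of the 87A window, and S2 had none over the wide pair. To the left, both Kc lists had a peak, from 7774371 to 7775743 in the control (score 92.47) and from 7774316 to 7775560 after CP190 RNAi (score 125.02). To the right, a control peak at 7792848 to 7793861 (1014 bp, score 80.8) had no counterpart in either other list.

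The other peaks of the 87C window scored lower than the block in each Kc list and were narrower than the 3583 bp of its smaller control part, except for a CP190 RNAi peak near the left end of the window. There both Kc lists had a wide peak with nearly the same right edge, 10 bp apart, and left edges 1294 bp apart. It was 2928 bp wide in the control (8291527 to 8294454, score 232.34, rank 1414) and 4232 bp wide after CP190 RNAi (8290233 to 8294464, score 335.00, rank 226). S2 cells had no peak there.

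Between this peak and the block the Kc lists were less alike. The control called 8304698 to 8306105 (score 66.43) and 8312706 to 8314075 (score 62.03), with no overlapping CP190 RNAi peak. Both ended within 1000 bp of a CP190 RNAi peak, which started at 8306340 and at 8314139. The CP190 RNAi list called 8306340 to 8309193, 2854 bp wide with a score of 185.03 and rank 906, and 8322913 to 8323958 with a score of 89.4. Neither had an overlapping control peak, though the first lay within 1000 bp of the control peak that ended at 8306105. Both lists called a pair of peaks between 8314139 and 8317114, with control scores of 58.42 and 53.84 and CP190 RNAi scores of 85.12 and 90.53. The 4 control peaks of this middle part ranked from 4406 to 4917 of 5096 by score, near the lower end of that list.

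**Figure D2:**
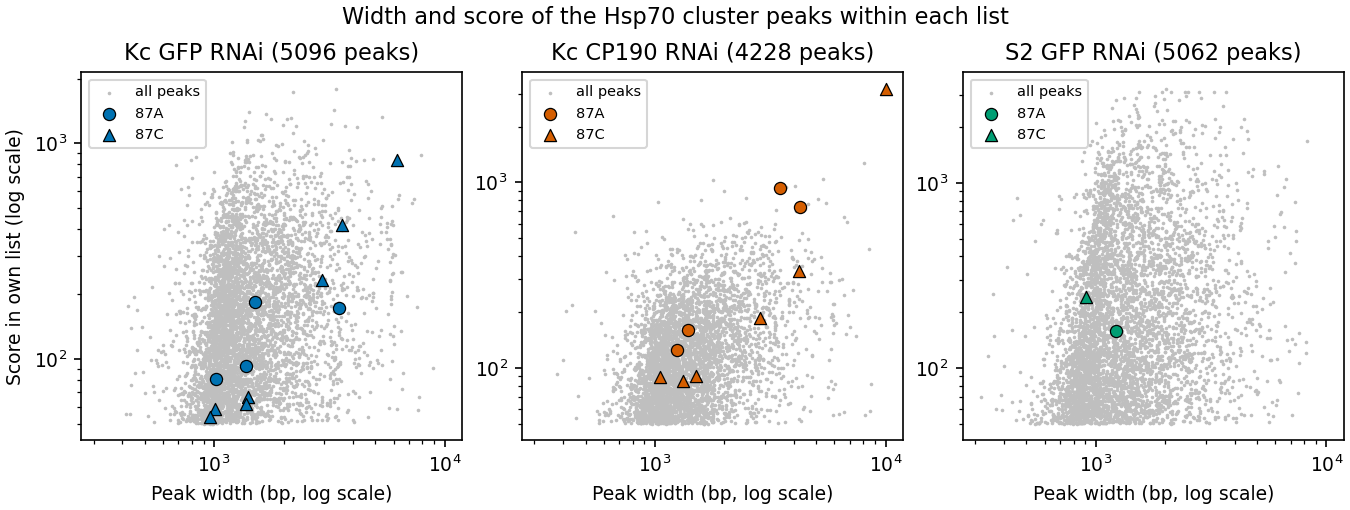
Peak width (bp, log scale) against score in its own list (log scale), 1 panel per list with its own score axis; grey dots are all peaks, circles the 87A and triangles the 87C members. The CP190 RNAi peak of 9998 bp stands alone at the top right of its panel, and the 2 S2 members lie among the bulk of their list.

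Joined across the 3 lists, the peaks fell on 12 separate sites, 5 at 87A and 7 at 87C. Of these, 2 had a peak in all 3 lists, the 87C block, with S2 at its right edge only, and the site at the right border of the 87A pair. Both Kc lists but not S2 had a peak at 4 sites, the control alone at 3 and the CP190 RNAi list alone at 3. No site was called in S2 cells alone, or in S2 and 1 Kc list only.

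Counted by peak, 3 of the 11 control members had no overlapping peak after CP190 RNAi (exact 95% binomial interval 6.02 to 61.0%, counting error only), beside 42.2% of all control peaks. In the other direction 3 of the 10 CP190 RNAi members had no control peak (6.67 to 65.2%), beside 29.6% of that whole list. The S2 list met few of the Kc members: 9 of 11 control members had no S2 peak (48.2 to 97.7%), beside 40.3% of all control peaks, and 8 of 10 CP190 RNAi members had none (44.4 to 97.5%), beside 55.4%. Both S2 members overlapped a peak of each Kc list, where 39.6% of all S2 peaks lacked a control peak and 63.0% a CP190 RNAi peak. Because presence in these lists was part of how the windows were chosen, and neighbouring peaks are not independent, nothing is read from the distance between the members' shares and those of the lists.

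The share of bases under a peak shows the same sites without regard to how a stretch was divided into peaks. At 87A, peaks covered 7374 bp of the window in the control (24.6%), 10359 bp after CP190 RNAi (34.5%) and 1220 bp in S2 cells (4.07%). At 87C they covered 17485 bp (29.1%), 20953 bp (34.9%) and 902 bp (1.50%). Over arm 3R as a whole, up to the farthest peak, the same lists covered 6.42%, 5.32% and 6.38%. Both Kc lists were denser in the windows than over the arm. Because the windows were chosen by peaks in these same lists, nothing is read from that difference. The S2 shares in the windows lay below that of the arm, but at 87A this rests on the window borders: with the window widened by 10 kb on both sides, S2 peaks covered 3633 bp of it (7.27%), above the arm.

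The Kc lists had most of these bases in common. At 87A, 6059 bp were under a peak in both, which was 82.2% of the control's covered bases and 58.5% of those after CP190 RNAi. At 87C the common part was 14554 bp, or 83.2% and 69.5%. Bases under a CP190 RNAi peak alone numbered 4300 at 87A and 6399 at 87C, against 1315 and 2931 under a control peak alone. Within the windows, most of what the control list covered was covered after CP190 RNAi too. More window bases were under a CP190 RNAi peak alone than under a control peak alone. Over arm 3R the order was the reverse, with 5.32% covered after CP190 RNAi and 6.42% in the control. Bases in common were not counted outside the windows, which were chosen by peaks in these same lists. No spread of Gcn5 after CP190 RNAi is therefore read from these bases.

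**Figure D3:**
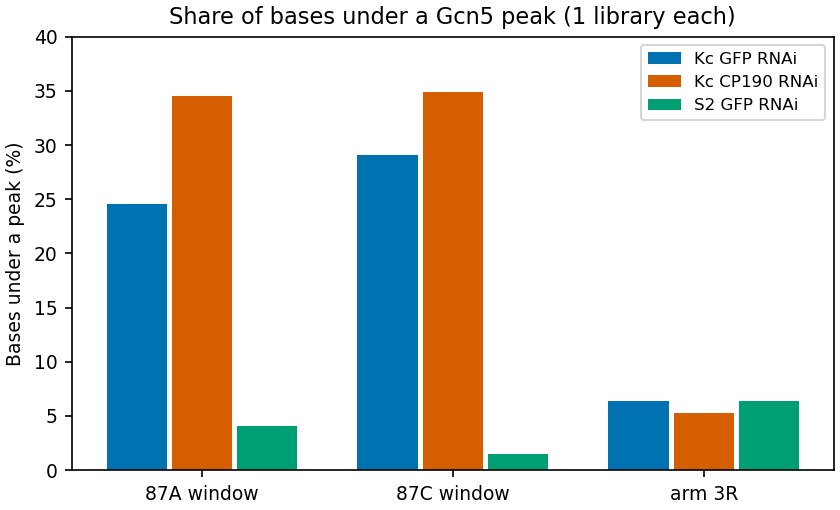
Share of bases under a Gcn5 peak (%) in the 87A window, the 87C window and the whole of arm 3R, 1 bar per list and 1 library per bar, with no error bars. Both Kc bars stand above 24% in the windows and near 6% over the arm, and the S2 bars are 4.07% and 1.50% in the windows. The windows were chosen by peaks in these same lists.

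The same measure was taken in 4006 other windows of 30 kb along the major arms, with the 87C window given as a left part (8285000 to 8315000) and a right part (8315000 to 8345000). The right part, which holds the block, had 11418 bp under control peaks and 13006 bp under CP190 RNAi peaks, and only 5 and 2 of the other windows had as much. At 87A, 103 of the other windows (2.57%) had as many bases under control peaks and 16 (0.399%) as many under CP190 RNAi peaks. For the left part of 87C, with 6068 and 7948 bp, these were 231 (5.77%) and 87 (2.17%). The excess of CP190 RNAi over control bases was 2985 bp at 87A, which 94 other windows (2.35%) reached. It was 1880 bp in the left and 1588 bp in the right part of 87C, which 5.82% and 7.04% reached. The largest excess among the other windows was 10138 bp, in X 15630001 to 15660000. In each Kc list, at most 5.77% of the other windows reached the covered bases of these Hsp70 windows. An excess of their size after CP190 RNAi was found in up to 282 other windows. No base was under a control peak in 36.7% of the other windows, and none under a CP190 RNAi peak in 50.3%. Because the Hsp70 windows were chosen by peaks in these same lists, nothing is read from how few other windows reached their covered bases. In S2 cells the values were ordinary ones. The 1220 bp at 87A were close to the median of 1196 bp over the other windows, 49.4% of which had as much. The 902 bp in the right part of 87C were reached by 58.3%, and the left part had no base under a peak, as did 33.6% of the other windows.

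**Figure D4:**
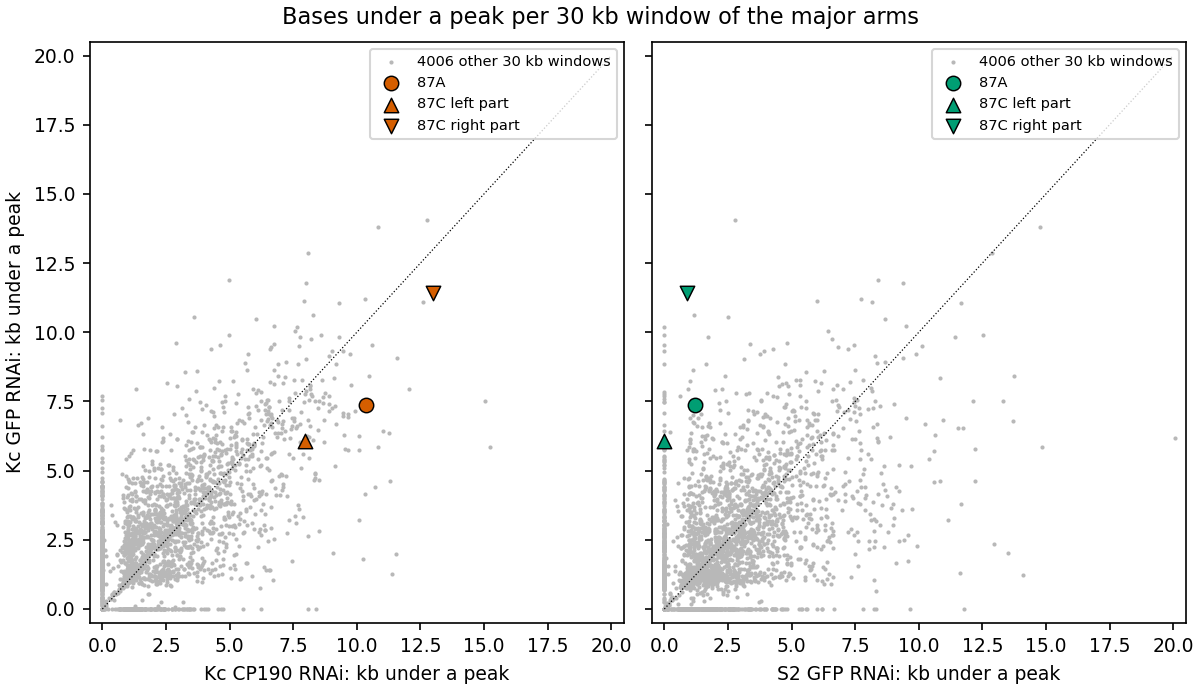
Kilobases under a Gcn5 peak in 30 kb windows of the major arms, with Kc GFP RNAi on the y axis and Kc CP190 RNAi (left panel) or S2 GFP RNAi (right panel) on the x axis; grey dots are 4006 other windows, the dotted line marks equal values. The 3 Hsp70 windows lie right of the line for CP190 RNAi and far left of it for S2.

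Peaks with the same presence in the lists and the greatest width were looked up on the major arms as those most like the members. Among 1560 CP190 RNAi peaks found in all 3 lists, the 87C block was first by width and by score. It counted as found in S2 only through the S2 peak at its right edge, which shared 546 bp or 5.46% of it. The left control part of the same block counted as not shared with S2. The next 3 by width were 8531, 8455 and 8021 bp wide, at 3R 16370133 to 16378663, 3R 17121102 to 17129556 and 3L 3191868 to 3199888, with scores of 58.37, 436.48 and 1270.96. A great width thus went with scores from near the bottom to near the top of the list.

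Among 832 peaks found after CP190 RNAi alone, the left peak of the 87A pair was first by score and had rank 16 by width. The widest of that kind, at 3R 6206505 to 6215112 and 3R 4871917 to 4879370, measured 8608 and 7454 bp with scores of only 81.71 and 148.61. Among 1125 CP190 RNAi peaks shared with the control but not with S2, the right peak of the 87A pair had rank 2 by score and 32 by width.

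Among 1098 control peaks shared with the CP190 RNAi list but not with S2, the left part of the 87C block was rank 1 by score and rank 5 by width. The 3 widest of that kind were 8930, 6600 and 6504 bp wide, at 3L 626942 to 635871, X 5820529 to 5827128 and 3L 14747589 to 14754092, with scores of 90.52, 85.91 and 72.86. Of the 61 control peaks that scored at least as high as this part of the block, 2 had no S2 peak, itself included, whereas of the 16 at least as wide 8 had none. The 549 control peaks with no counterpart in either list included 3 members, with ranks by score of 247, 360 and 406. The widest of that kind, at 2L 15586204 to 15593909 and 3R 5165958 to 5172851, measured 7706 and 6894 bp, against at most 1408 bp for the 3 members.

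Among 1562 S2 peaks found in all 3 lists, the 2 S2 members had ranks by score of 919 at 87A and 689 at 87C, and ranks by width of 1121 and 1481. The widest of that kind was also the widest S2 peak, at 2R 19944304 to 19952500 with 8197 bp. The 87A member, of 1220 bp, was close to the S2 median width of 1209 bp, and the 87C member of 902 bp lay below it.

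Outside the windows the nearest peaks differed between the lists. Just beyond the right border of the 87A window, the CP190 RNAi list had a peak 134 bp away, at 7800134 to 7801250 with a score of 149.34, and the S2 list had one 102 bp away, at 7800102 to 7801247 with a score of 261.82. The control list had no peak there, and its nearest on that side was 50072 bp away. On the left of 87A all 3 lists shared the nearest peak, at 7707697 to 7709033 in the control and 60967 bp from the window. On the left of 87C both Kc lists had a peak that S2 lacked, 2168 bp from the window in the control and 2130 bp after CP190 RNAi. The nearest S2 peak there lay 14541 bp away, at 8264777 to 8270459, where both Kc lists had peaks too. On the right, the nearest peaks lay 88863 bp or more from the window in all 3 lists. On the left of each cluster the nearest S2 peak was thus one that both Kc lists met. On the right the nearest S2 peak was met by the CP190 RNAi list alone at 87A and by neither Kc list at 87C.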

How the data were processed

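Per the submitters' processing notes, reads were handled with Bowtie, MACS, bedtools and HOMER on build dm3. Tool versions and roles, the calling threshold, the use of inputs and the handling of multiply matching reads were not stated. Each library has 1 deposited peak list. Its score column holds the authors' peak values on an unstated scale, which served for ranks within that list only. The lists hold no counts, so depth is unknown. Sequence name prefixes were removed and positions are printed 1-based.

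Lists were grouped by sample title. A peak was shared when it overlapped another by at least 1 bp. Rank 1 is the highest score or width, and ties share the better rank. Intervals are exact (Clopper-Pearson, 95%). Windows of 30 kb were laid from the start of each major arm (X, 2L, 2R, 3L, 3R, 4) to its farthest peak, without those meeting the Hsp70 windows. This comparison was not among those listed at the outset. The members, lists and named peaks were chosen with earlier results of these data known. Named peaks are all members, the nearest peak on each side of a window, the widest peak of each list and the 3 widest other peaks of the same presence. Alternatives varied overlap, score threshold, list length, joining and window size. Planned promoter motifs, sequence identity and the other heat shock genes were not analysed here, as no sequence or dm3 annotation was used. The overlap code was tested on simulated data. Python 3.11.15, SciPy 1.17.1 and matplotlib 3.10.9 were used.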

Additional observations from a re-analysis of the deposited data

How the results depend on the processing

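Of 102 recomputed peak counts, covered bases and counts of members without a counterpart, 79 stayed within 1.5 times the value reported and 23 did not. Covered bases moved only for S2 at 87A with windows widened by 10 kb on both sides, from 1220 to 3633 bp, where the S2 peak count went from 1 to 3. The others of these 102 that moved were counts of few peaks. At a score of 100 or more, the 87A control count fell to 2, and the 87C counts to 3 in each Kc list; lists of equal length gave 3 control peaks at 87C. Control members with no CP190 RNAi peak numbered 7 with centres within 250 bp, 1 with peaks within 1000 bp, 0 at a score of 100 or more and 1 with lists of equal length. CP190 RNAi members with no control peak numbered 6, 1 and 5 with centres within 250 bp, peaks within 1000 bp and lists of equal length, and 5 with widened windows. Members with no S2 peak fell to 3 of the control at a score of 100 or more and 5 with lists of equal length, and to 5 of the CP190 RNAi list at a score of 100 or more. S2 members with no control peak numbered 1 under 50% reciprocal overlap, 1 with centres within 250 bp and 2 with widened windows, and those with no CP190 RNAi peak 1 under each of these 3. Fewer peaks enter under a score threshold or equal lengths by construction; other causes were not tested. Ranks as a percent of the list depended on which peaks were ranked. By score, 0 of 23 members left the 95% interval around their rank share on the major arms alone, and 8 did on 3R alone. By width, 12 and 14 did. That interval served only as a yardstick, because a rank within a complete list is not a sample. With joined peaks, the CP190 RNAi block kept rank 1 of 4147 by score and by width, and the 87A pair kept ranks 7 and 15 by score. The joined control block had rank 61 by score and rank 1 by width of 5014. The planned motif alternative was not run. No paired analysis was possible because there was a single library per condition, and none could be left out.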
